A study of Mus musculus with 18 samples.

Results

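The livers of LL mice, homozygous knock-ins in which proline 446 of the glucokinase regulatory protein (GKRP, the product of Gckr) is replaced by leucine, were compared with livers of PP mice, the wild-type littermates, with males and females in 1 comparison. Every one of the 18 RNA-seq libraries of the series entered the comparison, 9 from LL and 9 from PP mice, 1 library per mouse, so that P values measure the spread between mice. Among males 4 mice were PP and 4 were LL, and among females 5 were PP and 5 were LL. All were of a C57BL/6N background and had been kept on standard chow. By the labels PP mice were 9 to 14 and LL mice 11 to 14 weeks old, and the series text gives a single age of 14 weeks. The allele sits at the Gckr locus itself, so every cell that expresses Gckr carries it and a change in liver RNA is not assigned to one cell type. The question was which genes moved with LL genotype in the same direction in males and in females.

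GKRP is a hepatocyte protein that restrains the phosphorylation of glucose in the liver cell when glucose is low. A rise in glucose or fructose lifts this restraint, and the sugar phosphates then formed feed glycolysis, glycogen and fatty acid synthesis. The transcription factor ChREBP responds to these sugar phosphates, whereas PPARalpha responds to fatty acids and drives their oxidation.

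The residue changed in LL mice lies in coding exon 15 of the canonical Gckr transcript, and its codon on the reference genome (GRCm39) is chr5:31466275-31466277 on the plus strand. It is shown because it is the single designed difference between the groups, with the proline codon in capitals, 5′ to 3′, within chr5:31466263-31466289:
Gckr reference codon 446: gggcagtccttgCCAgtgagtgtctgg
The tables hold gene-level counts and not read bases, so the genotype of a library cannot be read from them. Gckr was read at normalised counts of 565, 399.7, 581 and 528 in the male PP mice and at 515, 464, 468 and 465 in the male LL mice. For Gckr in females the PP livers gave 519.8, 677, 552, 779 and 526 and the LL livers 587, 570, 585, 691 and 526. The groups overlapped in both sexes, and the change in Gckr by LL genotype was -0.08 ± 0.10 on the log2 scale (SE; DESeq2 adjusted P = 0.716). Gckr did not pass the test in any of the 12 alternative fits or with any of the 18 libraries left out.

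Total estimated counts ran from 3794671 to 6613905 per library. The hepatocyte markers, among them Alb and Apoa1, summed to 473993 to 919079 normalised counts in a library, whereas Adipoq, the adipocyte marker, was at 0 in every library and none of the 6 neutrophil markers was high enough to be tested. Libraries of LL mice had shorter fragments than those of PP mice: the mean was 518 ± 95.7 bases in male PP against 407 ± 156 in male LL livers, and 448 ± 108 in PP females against 292 ± 52.1 in LL females (SD). Fragment length was taken as the gap between the length and the effective length of long transcripts. The mean of both differences was -134 bases (exact permutation within sex, two-sided P = 0.0152), and the total counts differed by -721350 (P = 0.108, same test). The share of counts on the mitochondrial genome was higher in LL mice by 2.70 percentage points, with 9.5% ± 1.00 in male PP, 12.6% ± 3.73 in male LL, 10.2% ± 1.11 in PP females and 12.5% ± 1.34 in LL females (exact permutation within sex, two-sided P = 0.00454). In males alone the difference did not pass (exact permutation P = 0.171), and taken from TPM over both sexes it did not either (exact permutation P = 0.0775).

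**Figure D1:**
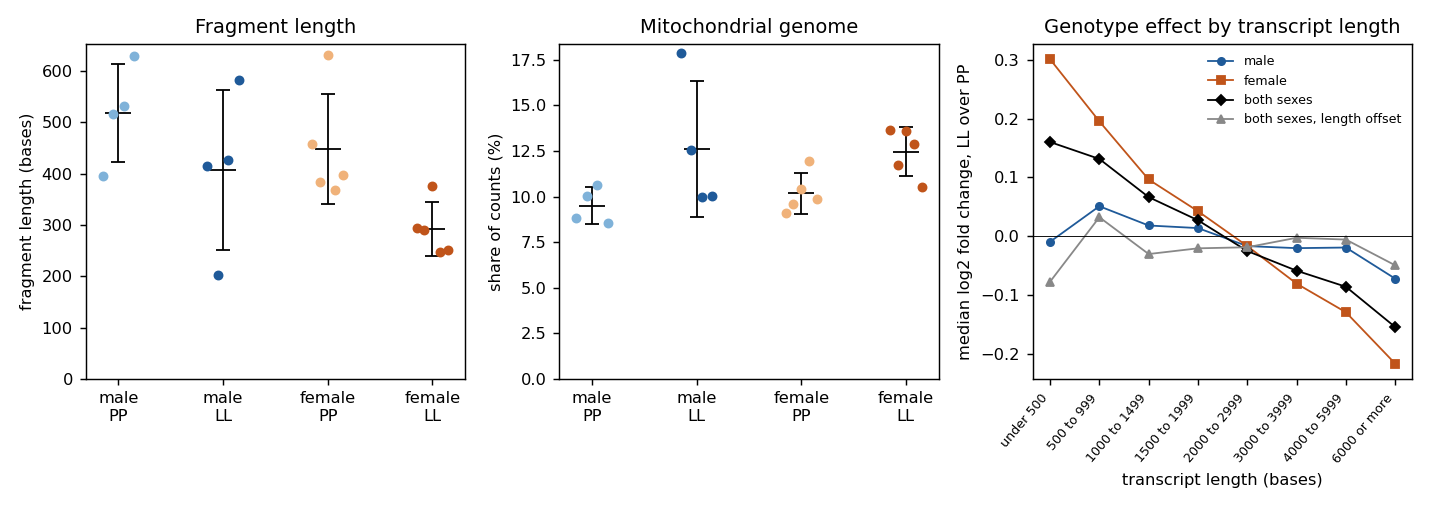
Left and middle, fragment length in bases and the share of counts on the mitochondrial genome in percent for each of the 18 livers (points; bar, mean; whiskers, SD); right, median log2 fold change (LL over PP) of genes grouped by transcript length in bases. LL libraries had shorter fragments on average in both sexes, and in females the median fell from 0.30 for the shortest transcripts to -0.22 for the longest.

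LL genotype was associated with 112 differentially expressed genes (DEGs) over both sexes, 74 higher and 38 lower in LL mice, of 10938 genes tested. DEGs were taken at a DESeq2 adjusted P below 0.05, in a fit with sex and genotype as terms, and at 1.3 times the PP level or more, or 0.7 times or less. DEGs made up 1.02% of the genes tested, 0.677% higher and 0.347% lower. Without the fold limit, 122 genes rose (1.12%) and 89 fell (0.814%) at an adjusted P below 0.05. The genes tested include 4033 without an adjusted P, which could not be called. These shares are therefore lower than among the genes that could be called. The same fit with edgeR's quasi-likelihood test called 4 genes (0.0366%), although 1639 genes had an unadjusted P below 0.05 by edgeR and 1597 by DESeq2. The count of DEGs fell to 60 without female PP 1, 65 without female PP 3 and 67 without male PP 2, and came to 176 without female PP 4 and 192 without male PP 3. It was 55 when the effective transcript length of each library entered the fit (23 higher and 32 lower), 31 where the fragment length of the library was a term (12 and 19) and 41 without the 4 libraries furthest out in fragment length or mitochondrial share, male LL 1, male LL 2, male PP 4 and female PP 3 (29 and 12). With age in weeks as a term it was 65 and with the mitochondrial share as a term 28.

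All 112 DEGs had the same sign in males and females, against 6305 of the 10938 genes tested, a direction that the joint fit favours. Each sex was therefore also fitted alone, so that no mouse was shared between the fits. An unadjusted P below 0.05 in both sexes was found for 135 genes, of which 116 (1.06% of genes tested) had the same sign, 60 higher and 56 lower in LL mice, and 19 had opposite signs. Of the DEGs, 54 were among them, 35 higher and 19 lower. With fragment length in each of these fits the count of genes of the same sign was 35, with 18 of opposite sign. It was 69 without male PP 2. The genotype effect differed between the sexes (DESeq2 interaction, adjusted P below 0.05) for 13 genes (0.119%), of which 1, Ahcyl, was a DEG. The LL and PP libraries did not overlap, in the same direction in both sexes, for 14 genes (0.128%). Among the DEGs these were Gstm2, Gm20300, Kxd1, Dbi and Glrx2, higher in LL mice, and Sash1 and Ern1, lower in LL mice, named here after their values were seen. In females the gap was narrow for Gstm2, with PP 3 at 288.7 and LL 2 at 289.5 normalised counts. It was also narrow for Kxd1 (PP 4 at 117.8, LL 1 at 118.4) and Dbi (PP 2 at 3242, LL 4 at 3245).

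**Figure D2:**
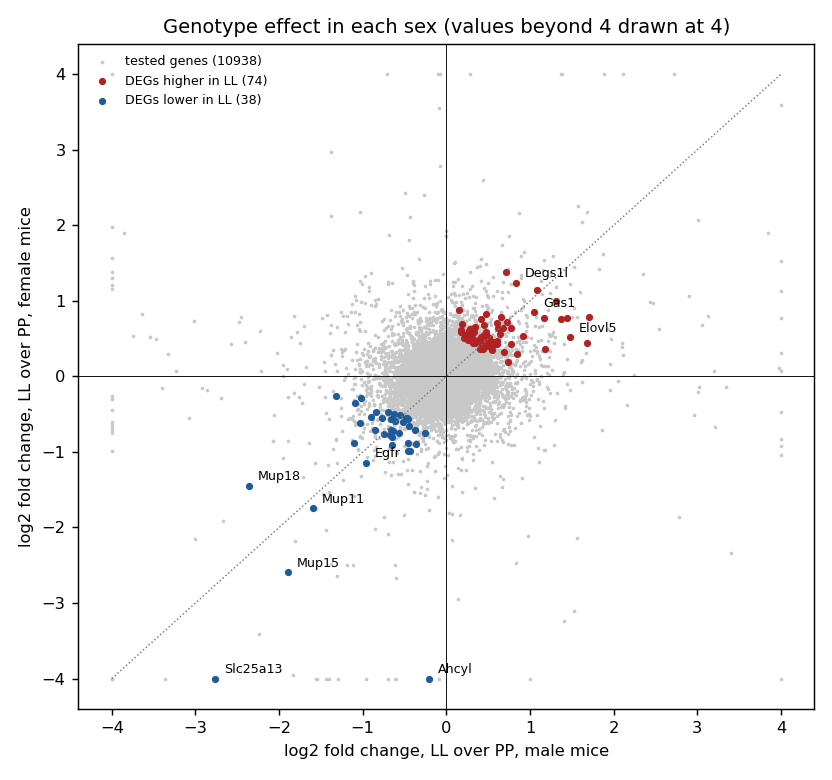
Log2 fold change (LL over PP) in male mice on the x axis and in female mice on the y axis for each of the 10938 genes tested, with DEGs over both sexes in colour and values beyond 4 drawn at 4. The 74 DEGs higher in LL mice lie in the upper right quadrant and the 38 lower ones in the lower left, with Ahcyl near 0 in males.

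The DEG with the smallest P was Sash1 (chromosome 10, 8597917 to 8761989), which encodes a scaffold protein with SAM and SH3 domains. Sash1 was read at normalised counts of 75.2, 67.1, 86.5 and 60.3 in the male PP mice and at 46.7, 48.0, 36.6 and 54.0 in the male LL mice. For Sash1 in females the PP livers gave 82.2, 70.9, 86.4, 63.4 and 82.6 and the LL livers 51.9, 39.5, 43.1, 43.2 and 43.8. Every LL liver lay below every PP liver of its sex. Over both sexes Sash1 changed by -0.74 ± 0.12 on the log2 scale (SE; DESeq2 adjusted P = 2.50e-05), and the values by sex were -0.65 in males and -0.80 in females. Ern1 (chromosome 11, 106283818 to 106378686) encodes IRE1alpha, the kinase and endoribonuclease of the endoplasmic reticulum that splices Xbp1 RNA under stress. Ern1 was read at normalised counts of 182, 154, 139 and 163 in the male PP mice and at 99.8, 99.5, 99.9 and 104 in the male LL mice. For Ern1 in females the PP livers gave 145, 140, 112, 116 and 185 and the LL livers 104, 86.0, 101, 67.9 and 65.7. The LL livers were again below all PP livers in both sexes, and the male LL livers lay close together. Over both sexes Ern1 changed by -0.69 ± 0.12 on the log2 scale (SE; DESeq2 adjusted P = 2.73e-05), and the values by sex were -0.66 in males and -0.71 in females. Ern1 kept its call in every one of the 12 alternative fits and with each of the 18 libraries left out.

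Ern1 and Sash1 also passed edgeR's test (adjusted P = 0.0129 and 0.00600). A further gene lower in LL mice by edgeR was Klf12, a repressor of the Krüppel-like family, with a log2 change of -0.90 ± 0.17 and an edgeR adjusted P of 0.0129. In the main fit DESeq2 gave it no adjusted P because of its low mean count. With effective transcript length in the fit Klf12 did not pass (log2 change -0.75, DESeq2 adjusted P = 0.441). With fragment length in the fit it was at -0.82 (DESeq2 adjusted P = 0.0455). Its normalised counts were 39.6 ± 3.62 in male PP, 22.2 ± 3.40 in male LL, 43.7 ± 10.2 in PP females and 22.8 ± 5.22 in LL females (SD), and it was chosen after its values were seen.

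Gm46620 is a long non-coding RNA gene. Gm46620 was read at normalised counts of 502, 668, 457 and 547 in the male PP mice and at 320.1, 285, 358 and 329 in the male LL mice. For Gm46620 in females the PP livers gave 343, 246, 388, 159 and 338 and the LL livers 153, 231, 184, 129.6 and 173. Male LL livers were all below male PP livers, whereas the female groups overlapped through female PP 4. Over both sexes Gm46620 changed by -0.76 ± 0.15 on the log2 scale (SE; DESeq2 adjusted P = 0.00025), and the values by sex were -0.75 in males and -0.76 in females. Of its 31-base words, 90.2% also occur in transcripts of other genes, most of them in Gm42427, so its counts are uncertain. With fragment length in the fit its adjusted P was 0.118.

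A further 10 DEGs lower in LL mice were among those with the smallest P. Egfr, the epidermal growth factor receptor, was 3944 ± 595 in male PP and 2023 ± 1032 in male LL livers, and 2053 ± 596 in PP females against 929.5 ± 424 in LL females (SD), a log2 change of -1.06 ± 0.23 (DESeq2 adjusted P = 0.00147). With transcript length in the fit its adjusted P was 0.198. Lifr, the receptor for leukaemia inhibitory factor, fell from 2518 ± 602 to 1472 ± 234 in males and from 1787 ± 359 to 1219 ± 355 in females. Its log2 change was -0.65 ± 0.15 (DESeq2 adjusted P = 0.00468), and it passed with transcript length, fragment length or age in the fit. Nr3c2, the mineralocorticoid receptor, changed by -0.77 ± 0.18 on the log2 scale, and Slc11a2, a transporter of ferrous iron, by -0.55 ± 0.14. Narf (-0.66 ± 0.13), Pgap1 (-0.74 ± 0.18), which deacylates GPI anchors, the phosphatase Ptpn3 (-0.52 ± 0.12), the ubiquitin ligase adaptor Klhl24 (-0.52 ± 0.13), Atrnl1 (-0.66 ± 0.16) and the ubiquitin ligase Rnf213 (-0.63 ± 0.16) were the others. With effective transcript length in the fit Narf and Lifr kept the call, and with fragment length Egfr and Lifr did. Of these 10 genes, Egfr, Nr3c2, Lifr, Atrnl1, Slc11a2 and Rnf213 had an unadjusted P below 0.05 in each sex alone.

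Among the genes higher in LL mice, Elovl5 (chromosome 9, 77818113 to 77891802) encodes the elongase of polyunsaturated fatty acids. Elovl5 was read at normalised counts of 619, 564, 918 and 628 in the male PP mice and at 2589, 1682, 1564 and 1755 in the male LL mice. For Elovl5 in females the PP livers gave 1928, 2232, 1984, 2879.9 and 1623 and the LL livers 3444, 3974, 3179, 2289 and 2329.6. Every male LL liver exceeded every male PP liver, and the female groups overlapped. Over both sexes Elovl5 changed by 0.94 ± 0.18 on the log2 scale (SE; DESeq2 adjusted P = 0.00021), and the values by sex were 1.47 in males and 0.52 in females. Apoa4 (chromosome 9, 46151994 to 46154757) encodes apolipoprotein A-IV, a component of triglyceride-rich lipoproteins and high density lipoprotein. Apoa4 was read at normalised counts of 147, 207, 237 and 261 in the male PP mice and at 390.1, 815, 705 and 416 in the male LL mice. For Apoa4 in females the PP livers gave 321, 208, 449.8, 279.9 and 326 and the LL livers 439.7, 689, 572, 283 and 715. The male groups did not overlap and the female groups did, with female LL 1 and LL 4 within the PP range. Over both sexes Apoa4 changed by 1.07 ± 0.21 on the log2 scale (SE; DESeq2 adjusted P = 0.000238), and the values by sex were 1.45 in males and 0.77 in females. 2010003K11Rik (chromosome 19, 4546815 to 4548790) is a protein-coding gene. 2010003K11Rik was read at normalised counts of 30.4, 28.3, 38.5 and 28.8 in the male PP mice and at 58.3, 64.7, 75.8 and 83.2 in the male LL mice. For 2010003K11Rik in females the PP livers gave 34.3, 34.5, 53.7, 57.1 and 50 and the LL livers 83.8, 98.8, 84.6, 43.2 and 78.8. Male LL livers were above all male PP livers, and in females LL 4 alone fell within the PP range. Over both sexes 2010003K11Rik changed by 0.93 ± 0.16 on the log2 scale (SE; DESeq2 adjusted P = 3.05e-05), and the values by sex were 1.16 in males and 0.77 in females. This was the only gene higher in LL mice that passed edgeR's test (adjusted P = 0.0227).

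Lgals4 (chromosome 7, 28531804 to 28541281) encodes galectin-4, a lectin that binds beta-galactosides. Lgals4 was read at normalised counts of 72.0, 78.7, 86.5 and 72.0 in the male PP mice and at 113, 110.3, 109.8 and 82.1 in the male LL mice. For Lgals4 in females the PP livers gave 98.2, 87.3, 107, 92.4 and 83.3 and the LL livers 172, 102, 183, 155 and 177. The groups overlapped through male LL 4 in males and female LL 2 in females. Over both sexes Lgals4 changed by 0.62 ± 0.12 on the log2 scale (SE; DESeq2 adjusted P = 0.000401), and the values by sex were 0.42 in males and 0.76 in females. Gas1 (chromosome 13, 60322219 to 60325179) encodes a membrane-anchored growth arrest protein that also serves as a hedgehog co-receptor. Gas1 was read at normalised counts of 16, 15.7, 20.7 and 20.7 in the male PP mice and at 55.7, 14.4, 36.6 and 46.5 in the male LL mice. For Gas1 in females the PP livers gave 29.5, 42.7, 35.2, 44.4 and 26.4 and the LL livers 61.0, 55.3, 58.5, 56.8 and 88.6. All female LL livers exceeded all female PP livers, and male LL 2 lay below the male PP range. Over both sexes Gas1 changed by 0.92 ± 0.19 on the log2 scale (SE; DESeq2 adjusted P = 0.00112), and the values by sex were 1.05 in males and 0.85 in females. At these counts the counting error of a single liver is wide.

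**Figure D3:**
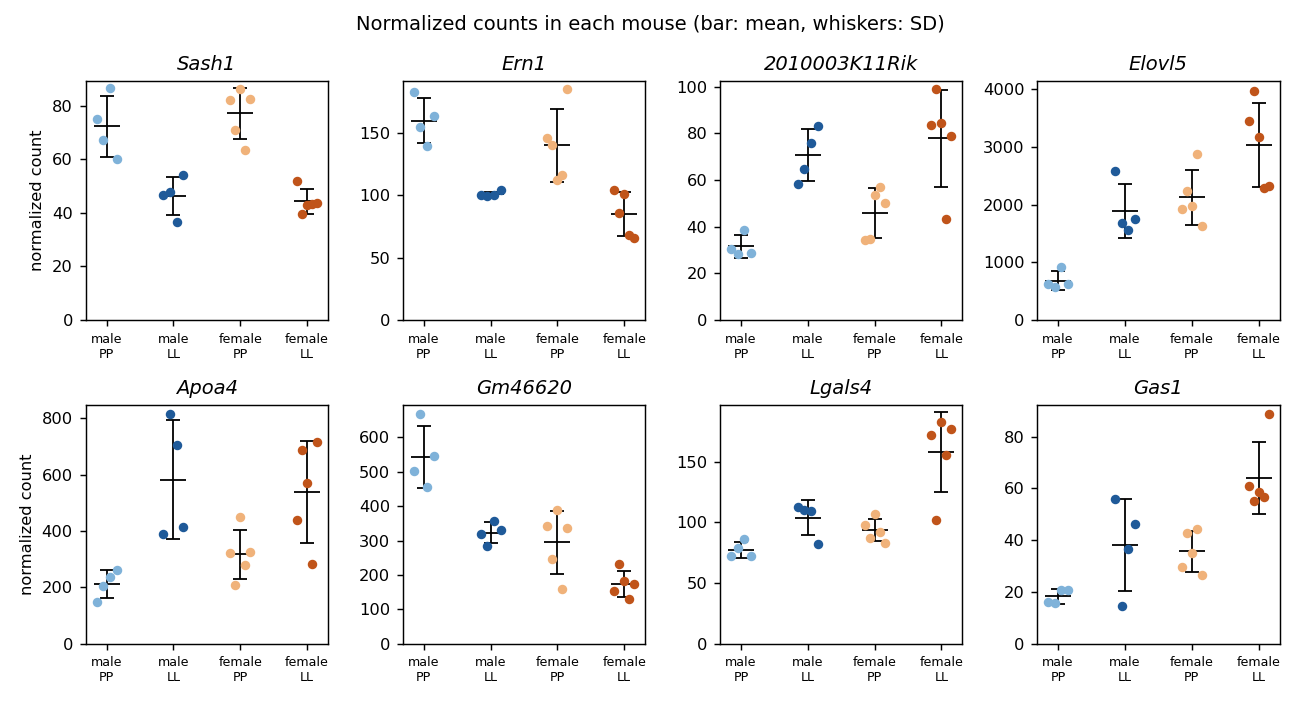
Normalised counts of the 8 DEGs with the smallest P that also had an unadjusted P below 0.05 in each sex alone, 1 point per mouse in the 4 groups (bar, mean; whiskers, SD; y axes start at 0). For Sash1 and Ern1 every LL point lies below every PP point of the same sex.

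Of the remaining 10 genes higher in LL mice with the smallest P, 9 have a transcript shorter than the median of all genes tested. Fth1, the ferritin heavy chain that stores iron, rose from 6101 ± 801 to 7373 ± 912 in males and from 5522 ± 762 to 7973 ± 671 in females (log2 change 0.42 ± 0.09, DESeq2 adjusted P = 0.00147). Its transcript is 624 bases long, and with effective transcript length in the fit its log2 change was -0.0025 (adjusted P = 0.998). Hjv, hemojuvelin, a co-receptor upstream of hepcidin, rose by 0.44 ± 0.10 on the log2 scale (DESeq2 adjusted P = 0.00226, 0.00287 with transcript length and 0.0882 with fragment length in the fit). Acot2, a mitochondrial acyl-CoA thioesterase, rose by 1.12 ± 0.26 and Degs1l by 1.04 ± 0.23. The endosomal sorting protein Snx3 (0.43 ± 0.09), the Hsp90 co-chaperone Ptges3 (0.50 ± 0.10), the DNA cross-link repair nuclease Dclre1a (0.67 ± 0.15), the mitochondrial iron-sulphur protein Cisd3 (0.51 ± 0.12), prothymosin alpha Ptma (0.38 ± 0.09) and the glutathione transferase Gstm2 (0.49 ± 0.11) were the others. With effective transcript length in the fit Snx3, Fth1, Cisd3, Ptma and Gstm2 lost the call, and with fragment length each of the 10 but Degs1l did. Snx3, Fth1 and Hjv did not reach an unadjusted P of 0.05 in males alone, and Acot2 shares 34.6% of its 31-base words with other genes, most of them with Acot1.

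A list of 28 PPARalpha targets held genes of fatty acid oxidation, genes with other roles and Ppara itself. Of these 28 genes, 6 rose in LL mice at a DESeq2 adjusted P below 0.05 and 0 fell, where 1.12% of all genes tested rose. The log2 change was above 0 in both sexes for 22 of them and below 0 in both for 3, against 3240 and 3065 of the 10938 genes tested, and the median of the list was 0.32 over both sexes, 0.36 in males and 0.29 in females, against 0.00 over both sexes for all genes. The peroxisomal thiolase Acaa1b rose from 2844 ± 690 to 4367 ± 1855 in males and from 4057 ± 443 to 6322 ± 1723 in females (log2 change 0.63 ± 0.17, adjusted P = 0.018). Acot4, a peroxisomal thioesterase, rose by 0.70 ± 0.21 and the peroxisomal bifunctional enzyme Ehhadh by 0.54 ± 0.17. Below the fold limit, the acyl-CoA dehydrogenases Acadl (0.30 ± 0.06, adjusted P = 0.00147) and Acadm (0.33 ± 0.10, 0.0361) and the carnitine transferase Cpt2 (0.30 ± 0.08, 0.00816) also rose. Pdk4, the kinase that shuts off pyruvate oxidation and that was chosen after its values were seen, was at 1.72 ± 0.57 without passing (adjusted P = 0.0665), and Ppara itself was at -0.64 ± 0.28 (adjusted P = 0.178).

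None of the 28 PPARalpha targets passed edgeR's test. At an unadjusted DESeq2 P below 0.05, 18 were higher, against 828 of all 10938 genes. With effective transcript length in the fit 0 passed DESeq2's test, and 0 did so when fragment length was a term. The median log2 change of the list was 0.27 and 0.28 in those fits, and 0.30 without the 4 extreme libraries. There 3 members passed as higher, against 38 of all 10938 genes. Acaa1b shares 40.0% of its 31-base words with other genes, most of them with Acaa1a. RefSeq promoter windows (250 bases before to 50 after the start, GRCm38.p6) were held for 21 of the 28 genes and searched on both strands for a pair of AGGNCA letters in the same direction with 1 base between them, the direct repeat of PPARalpha elements. It was found in the promoter of 1, Fabp1, against 0.45% of the 27025 genes with a window, and in 0 of the 59 higher and 0 of the 27 lower DEGs with a window. The Fabp1 match, shown because that gene encodes the liver fatty acid binding protein of this list, lies on the plus strand within chr6:71199804-71199832, with the motif in capitals as its reverse complement:
Fabp1 promoter: acaatcacTGACCTATGGCCTatatctga
The log2 change of Fabp1 was 0.26 ± 0.14 (DESeq2 adjusted P = 0.314), and a match is a description of the letters and not of binding.

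**Figure D4:**
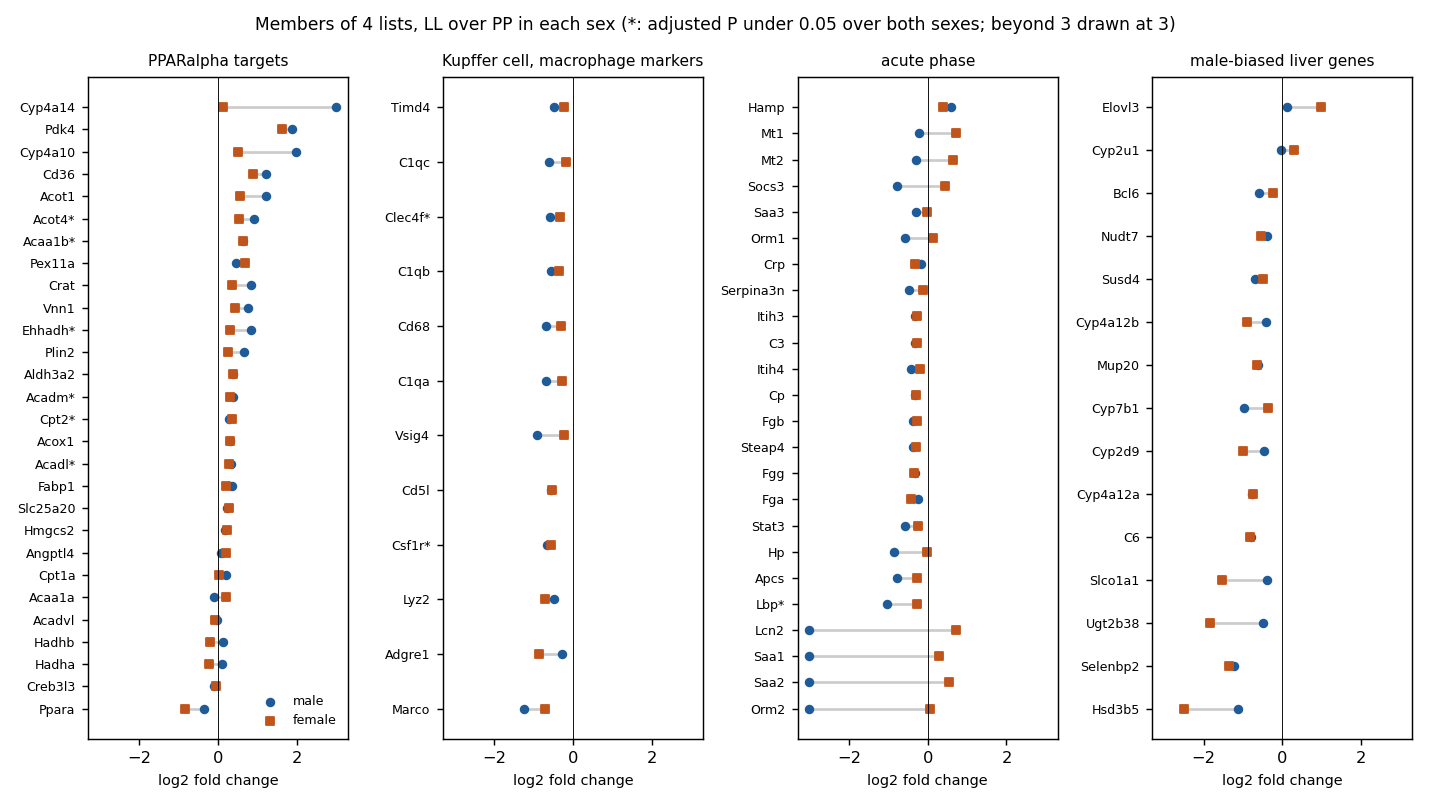
Log2 fold change (LL over PP) of each tested member of 4 gene lists in males (circles) and females (squares), ordered by the value over both sexes; stars mark an adjusted P below 0.05 over both sexes. For 22 of the 28 PPARalpha targets both points lie above 0, and for all 12 Kupffer cell and macrophage markers both lie below 0.

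Of 15 genes of fatty acid synthesis and desaturation tested, 3 rose in LL mice and 0 fell, where 0.677% of all genes were DEGs higher in LL, and 7 were above 0 in both sexes, against 3240 of all 10938 genes. Besides Elovl5, the desaturase Fads1 rose by 0.44 ± 0.12 on the log2 scale (0.74 in males and 0.20 in females; DESeq2 adjusted P = 0.0306) and Thrsp, a lipogenic regulator, by 0.70 ± 0.21 (0.78 in males and 0.63 in females; adjusted P = 0.0406). The Fads1 call was lost with age as a term (adjusted P = 0.0904). Thrsp lost its call with effective transcript length (0.150), fragment length (0.20) or age (0.0651) in the fit, and kept it in 6 of the 18 fits that left out 1 library. Fasn, the fatty acid synthase, was at 0.48 in males and -0.17 in females, and the desaturase Scd1 at 1.47 in males and -0.19 in females. The median of the list was 0.14 over both sexes, 0.56 in males and -0.01 in females, and the gap between the sexes was not tested for the list. A list of 18 genes held known ChREBP targets such as Pklr and Txnip, together with others that the study did not count as such, among them Slc16a1 and Gpr146. In it Gpr146, a receptor linked to blood cholesterol, was the only gene to pass, where 0.814% of all genes fell. Gpr146 fell by 0.50 ± 0.12 on the log2 scale (adjusted P = 0.00583, and 0.272 with effective transcript length in the fit). Of the 6 ChREBP targets that the study picked from the male livers, 1, Ehhadh, passed, and the medians were 1.16 in males and -0.16 in females; as that list was chosen on these mice, its direction in males is not independent evidence. None of 10 genes of gluconeogenesis passed the test by DESeq2 or by edgeR, with 0 higher and 0 lower at an unadjusted P below 0.05.

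Of 12 markers of Kupffer cells, the resident macrophages of the liver, 2 fell in LL livers over both sexes by DESeq2 and 0 by edgeR, where 0.814% of all genes fell by DESeq2. All 12 had a log2 change below 0 in both sexes, against 3065 of the 10938 genes tested, and 11 were lower at an unadjusted P below 0.05, against 769 of all genes. Csf1r, the receptor for colony stimulating factor 1, fell from 90.7 ± 34.4 to 58.1 ± 12.2 in males and from 126 ± 16.5 to 85.0 ± 20.3 in females (log2 change -0.60 ± 0.16, DESeq2 adjusted P = 0.0143). Clec4f, a lectin of Kupffer cells, fell by 0.44 ± 0.14 on the log2 scale (adjusted P = 0.0476). Lyz2 was at -0.61 ± 0.19 (adjusted P = 0.0507), Cd5l at -0.55 ± 0.19 (0.0713) and Vsig4 at -0.51 ± 0.18 (0.081). The summed level of the markers ran over 809.6 to 2027 normalised counts in male PP, 734 to 1259.6 in male LL, 1394 to 1726 in PP females and 833 to 1332 in LL females, so the female groups did not overlap and the male groups did. In bulk liver, fewer macrophages and less of these RNAs per macrophage cannot be told apart. The median of the list was -0.48 over both sexes, -0.60 in males and -0.33 in females. It was -0.56 with effective transcript length in the fit, -0.31 with fragment length and -0.39 without the 4 extreme libraries, with 0, 0 and 0 members past the test.

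Acute phase genes are those that hepatocytes induce in inflammation. Among them Lbp, the lipopolysaccharide binding protein, alone passed the test over both sexes by DESeq2, where 0.814% of all genes fell. Its counts were 302 ± 98.9 in male PP and 149 ± 31.7 in male LL livers, and 216 ± 30.7 in PP females against 178 ± 25.5 in LL females (log2 change -0.61 ± 0.16, DESeq2 adjusted P = 0.0144). With effective transcript length or fragment length in the fit its adjusted P was 0.237 and 0.201. Of the 24 members, of which Saa2, Orm2 and Lcn2 had no P because of an outlying count, 15 were below 0 in both sexes and 1 above, against 3065 and 3240 of all 10938 genes. An unadjusted P below 0.05 was found for 14 as lower, against 769 of all genes, and the median was -0.32 over both sexes, -0.41 in males and -0.17 in females. Crp was at -0.26 ± 0.09 (adjusted P = 0.0665), Stat3 at -0.38 ± 0.13 (0.0799) and the fibrinogen chain Fgg at -0.35 ± 0.12 (0.0889). Saa1, serum amyloid A, was at -3.33 in males and 0.30 in females. Of 11 sinusoidal endothelial markers 1 was below 0 in both sexes, with a median of -0.22 over both sexes, 0.41 in males and -0.60 in females, and of 8 stellate cell and fibroblast markers 0 were, with a median of 0.08 over both sexes, 0.53 in males and -0.26 in females; 0 and 0 passed the test. Among 9 hepatocyte markers Apob, the structural protein of very low density lipoprotein, fell by 0.35 ± 0.11 on the log2 scale (adjusted P = 0.0494, and 0.991 with effective transcript length in the fit), and Alb was at 0.03 ± 0.10 (0.895).

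Of 24 genes of the unfolded protein response, Ern1 alone passed the test, where 0.814% of all genes tested fell. Xbp1, whose RNA the Ern1 product splices, was at -0.34 ± 0.12 on the log2 scale (-0.41 in males and -0.28 in females, DESeq2 adjusted P = 0.098). Below 0 in both sexes were 10 members, against 3065 of all 10938 genes. The median of the list was -0.14 over both sexes, 0.02 in males and -0.33 in females. Among 21 receptors and insulin signalling genes, Egfr and Lifr fell, against the same 0.814% of all genes. Socs2, a suppressor of growth hormone signalling, was at -0.80 ± 0.27 (adjusted P = 0.0665), and Ghr, the growth hormone receptor, at 0.08 ± 0.08 (0.626). Of 16 antioxidant and NRF2 target genes, 11 were above 0 in both sexes, against 3240 of all 10938 genes. Sod1, the cytosolic superoxide dismutase, passed (log2 change 0.45 ± 0.11, adjusted P = 0.00486), where 1.12% of all genes rose. Its transcript of 647 bases is short, and its adjusted P was 0.196 with effective transcript length and 0.257 with fragment length in the fit.

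Major urinary proteins (Mup) are abundant pheromone carriers that male liver secretes. Of 22 Mup genes kept by the count filter, 3 fell in LL mice and 0 rose, where 0.814% of all genes fell. Below 0 in both sexes were 17, against 3065 of all 10938 genes. The median was -0.81 over both sexes, -1.07 in males and -0.64 in females. Mup10 had no P from DESeq2 because of an outlying count, with a log2 change of -5.19 over both sexes, -5.90 in males and -4.63 in females. Mup18 changed by -1.85 ± 0.49, Mup11 by -1.68 ± 0.47 and Mup15 by -2.28 ± 0.72 on the log2 scale (DESeq2 adjusted P = 0.0159, 0.0241 and 0.0495). In females the groups overlapped for all 3, and the PP livers were uneven. Female PP counts were 1511, 277, 398, 328 and 2577 for Mup18. They were 11768, 1126, 8122, 2030 and 809 for Mup11, and 1695, 424, 5090, 371 and 49.3 for Mup15. The summed level of the family ran from 1120954 to 1942971 normalised counts in male PP and from 588978 to 1062468 in male LL livers, which did not overlap. It ran from 90602 to 328826 in PP females and 96990.4 to 229029 in LL females, which did. The female medians of the sum were 130913 in PP and 141562 in LL livers, so the sum was not lower in LL females. The members are near copies: 93.2% of the 31-base words of Mup18, 81.9% of Mup11 and 100% of Mup15 occur in transcripts of other genes, so the values of single members are uncertain. With effective transcript length in the fit the median of the family was -1.15 and 4 members passed, against 56 of all 10938 genes. With fragment length it was -0.56 and 0 passed. Without the 4 extreme libraries 1 Mup gene passed as lower, against 30 of all genes, and the median was -0.38. Of 15 genes known to be higher in male liver, 13 were below 0 in both sexes, against 3065 of all 10938 genes, with a median of -0.65 over both sexes, -0.59 in males and -0.75 in females, and 0 passed the test by DESeq2 (8 lower at an unadjusted P below 0.05, against 769 of all genes, and 0 by edgeR). The complement gene C6 was at -0.81 ± 0.26 (adjusted P = 0.0559), Selenbp2 at -1.31 ± 0.48 (0.0942) and the steroid dehydrogenase Hsd3b5 at -1.88 ± 0.87 (0.214). Of 13 genes higher in female liver 6 were above 0 in both sexes, against 3240 of all 10938 genes. Their median was 0.45 over both sexes, 0.74 in males and 0.23 in females.

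Genes of the mitochondrial genome were above 0 in both sexes for all 13 protein-coding members, against 3240 of all 10938 genes. Their median was 0.35 over both sexes, 0.29 in males and 0.38 in females, and 0.25 with effective transcript length in the fit. These values moved with the mitochondrial share of the libraries given above. A single gene passed the test, mt-Nd3, a subunit of complex I, at 2315 ± 1378 in male PP, 5981 ± 2014 in male LL livers, 1714 ± 818 in PP females and 2906 ± 925 in LL females (log2 change 1.03 ± 0.26, DESeq2 adjusted P = 0.0073, and 0.199 with fragment length in the fit); 98.1% of its 31-base words occur in transcripts of other genes, most of them in Gm28438. Of 78 nuclear genes of the respiratory chain, 56 were above 0 in both sexes, against 3240 of all 10938 genes, and 2 rose, Ndufa10 by 0.33 ± 0.09 and Ndufa3 by 0.36 ± 0.11, where 1.12% of all genes rose. Of these 78 genes 0 passed with effective transcript length or fragment length in the fit, by edgeR or without the 4 extreme libraries. The median transcript of these genes is 587 bases long, and their median log2 change was 0.20 without and 0.09 with effective transcript length in the fit. For 89 genes picked by the names of cytosolic ribosomal proteins it was 0.12 and -0.03. None of them passed in either direction by DESeq2 or by edgeR. At an unadjusted DESeq2 P below 0.05, 11 were higher and 3 lower, against 828 and 769 of all 10938 genes. The names also drew in genes that do not encode ribosomal proteins. Among these are kinases named after protein S6, and Rps19bp1, which is among the 11 higher.

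**Figure D5:**
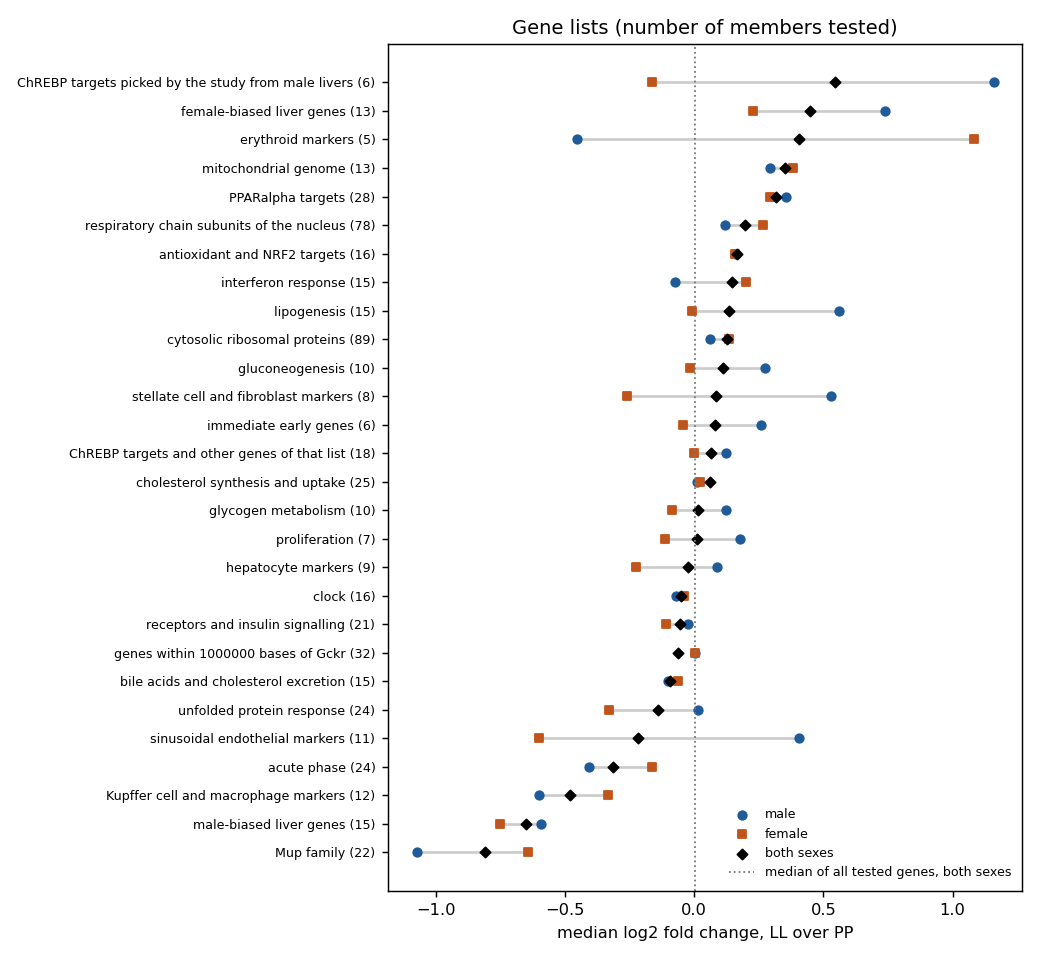
Median log2 fold change (LL over PP) of the tested members of the gene lists in males (circles), females (squares) and over both sexes (diamonds), for lists with at least 5 members tested; the dotted line is the median of all 10938 genes. The Mup family, male-biased genes, Kupffer cell markers and acute phase genes lie below 0 in both sexes, and PPARalpha targets and the mitochondrial genome above 0 in both.

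Transcript length moved with the genotype effect. The median transcript length was 1292 bases for DEGs higher in LL mice and 3693 bases for DEGs lower, against 2086 bases for all genes tested. Across genes, which are not independent replicates, Spearman's rho between the log2 change and transcript length was -0.32 over both sexes, -0.09 in males and -0.37 in females, and -0.02 with effective transcript length in the fit. Of the 112 DEGs, 31 were also DEGs with effective transcript length in the fit, 15 with a term for fragment length and 11 in both. Sash1, Ern1, 2010003K11Rik, Elovl5, Apoa4, Lgals4, Gas1, Degs1l and Lifr were among those called in both of these fits.

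A pair of DEGs rested on reads that came and went between libraries. Ahcyl, a gene of 2093 bases that shares 95.6% of its 31-base words with other genes, most of them with Ahcy (adenosylhomocysteinase), was read at 312, 1337, 1121 and 1501 in male PP and 1725, 0, 1227 and 742 in male LL livers. In females it was at 71.1, 524, 1012, 164 and 257 in PP livers and at 0 in all 5 LL livers. Its genotype effect therefore differed between the sexes (DESeq2 interaction adjusted P = 0.000101), edgeR did not call it over both sexes (adjusted P = 0.237), and the split of reads between Ahcyl and Ahcy is uncertain. Slc25a13, which encodes the mitochondrial aspartate-glutamate carrier citrin, was at 9.60, 115, 14.1 and 109 in male PP and 9.07, 9.59, 7.14 and 10.8 in male LL livers. In females the counts were 6.39, 11.8, 5.87, 8.15 and 1037 in PP and 9.10, 9.88, 8.94, 13.6 and 8.75 in LL, so that a single PP liver carried the female difference.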

How the data were processed

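RNA was extracted from the livers of 18 mice and sequenced as total RNA libraries. Per the labels, the authors quantified reads against mouse transcripts with Salmon 1.4.0 (GRCm39) and deposited, for each mouse, estimated counts, TPM, length and effective length per transcript. Sequencing layout and strand are not given in the sources used here. Estimated counts were summed to genes through the GENCODE annotation (137570 of 139225 transcripts joined) and rounded to whole numbers. TPM gave an alternative mitochondrial share and was used to find markers absent from every library. It also weighted the transcripts of a gene in its transcript length and in the effective transcript length that entered the fit.

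Genes that reached 10 counts in 4 or more libraries were fitted with DESeq2 1.42.0 (R 4.3.3; Wald test, sex and genotype as terms, Benjamini-Hochberg adjustment). No adjusted P was given for 4033 genes, 10 of them for an outlying count and the others by independent filtering. Each sex alone and an interaction were fitted likewise, and edgeR 4.0.16 (quasi-likelihood) was the alternative test. Library measures were compared by exact permutation within sex. The scripts were tested on simulated data. Group values are mean ± SD, and log2 changes carry their SE. Precision at low counts is limited by the library totals.

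The gene lists and the genes described were chosen with earlier results of these data known. The genes named are Gckr, the 15 higher and 15 lower DEGs with the smallest P, each DEG in a list and up to 4 members of a list with the smallest P. A further gene of this rule, and the list that holds it, are not reported here. The 8 leading DEGs with a P below 0.05 in each sex alone have their values given per mouse. Names outside this rule, chosen after their values were seen, are Acadm, Alb, Cd5l, Fabp1, Fasn, Ghr, Hsd3b5, Klf12, Lcn2, Mup10, Orm2, Pdk4, Ppara, Saa1, Saa2 and Vsig4, with Dbi, Glrx2, Gm20300 and Kxd1.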

Additional observations from a re-analysis of the deposited data

Results flagged for a closer look

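In groups of 4 or 5 mice, a library was marked when it stood apart from the others of its group by Dixon's test. Of 188 groups of named genes tested, 10 were marked, and chance marks about 5% of groups. In males, Gckr stood apart at 514.5 normalised counts in LL 1, Lgals4 at 82.1 in LL 4, Snx3 at 317.7 in LL 2, Ern1 at 103.7 in LL 4, Dclre1a at 83.72 in PP 4 and Egfr at 3056 in PP 4. In females these were Gas1 at 88.63 in LL 5, Acot4 at 2091 in LL 3, and Slc25a13 at 1037 in PP 5 and at 13.57 in LL 4. The value for Ern1 lies within a narrow group and below every PP liver. The genotype effect on Ahcyl differed between the sexes, with a fitted log2 difference of -10.9 (female minus male; DESeq2 interaction adjusted P = 0.000101). As all female LL livers were at 0, this fitted size depends on the model and is not a bound.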

How the results depend on the processing

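The 112 DEGs (74 higher, 38 lower) became 4 by edgeR (1 and 3), 65 with age as a term (39 and 26), 55 with an average transcript length offset (23 and 32), 31 with a term for fragment length (12 and 19), 28 with the mitochondrial share as a term (21 and 7) and 41 without the 4 extreme libraries (29 and 12), an alternative chosen after seeing the data. Of these, 3, 44, 31, 15, 16 and 30 were shared with the 112. Other size factors, count minimums, sex weights or no independent filtering gave between 103 and 119. Leaving out 1 library gave 60 to 192 DEGs, 31 to 127 higher and 27 to 65 lower, and besides the libraries named above the higher count moved to 47 without female PP 2 and 46 without female PP 5. With the replicate block the count was 89 (55 higher and 34 lower). Mice of the same number correlated at -0.22 to 0.21, so the numbers were not taken as pairs. The 116 genes of the same sign in both sexes became 63 with age, 77 with the length offset, 35 with fragment length and 54 without the 4 extreme libraries, and 69 to 141 with 1 library left out. DEGs whose effect differed between the sexes numbered 1, and 0 by edgeR and 2 with the length offset. The mitochondrial share taken from TPM was 3.47 percentage points higher in LL mice (exact permutation P = 0.0775). The total count difference, -721350, was -1021133 to -551261 with 1 library left out, and passed the threshold without male PP 1 (exact permutation P = 0.0141) or male LL 3 (P = 0.0493). The difference in fragment length kept its sign and its side of the threshold, from -163 to -99.7 bases. Of the alternative values of the named genes, 1036 kept their sign and side of the threshold or were never called, 282 lost the call, and 1 called value changed sign, Fth1 with the length offset at -0.0025. Where a setting changed a count by using fewer libraries the test had fewer mice, and for the other settings the cause was not tested. Genes below the count minimum were not described, and at counts such as those of Gas1 a small difference was not detectable.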

Other observations

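Of 25 genes of cholesterol synthesis and uptake, 1 rose in LL mice, Ebp, a sterol isomerase, where 1.12% of all genes rose. Ebp changed by 0.32 ± 0.07 on the log2 scale (DESeq2 adjusted P = 0.00387, and 0.452 with effective transcript length in the fit). In that list 6 genes were above and 4 below 0 in both sexes, against 3240 and 3065 of all 10938 genes. None of 15 bile acid and cholesterol excretion genes passed by DESeq2 or by edgeR. Of these, 1 was higher and 3 lower at an unadjusted P below 0.05, against 828 and 769 of all genes, and 7 were below 0 in both sexes. No gene passed by either tool among 10 of glycogen metabolism (2 lower at an unadjusted P below 0.05), 16 of the clock (1 higher and 2 lower), 15 of the interferon response (4 and 1), 7 of proliferation (0 and 1) and 6 immediate early genes (0 and 0). Most of the proliferation and immediate early genes had no adjusted P from DESeq2, so they could not pass by that tool. The 5 erythroid markers tested summed to 1982 to 5889 normalised counts in male PP, 966 to 4155 in male LL, 1282 to 2275 in PP females and 1125 to 6055 in LL females, and none passed by either tool. Of the lymphocyte and cholangiocyte markers, 3 and 1 were high enough to be tested, and none passed. The lymphocyte markers tested had no adjusted P from DESeq2 and could not pass by that tool.

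Within 1000000 bases of Gckr, 32 of 47 annotated genes were tested and none passed by DESeq2 or edgeR. Of those tested, 2 were higher and 0 lower at an unadjusted P below 0.05, against 828 and 769 of all 10938 genes. Cgref1 was at 1.11 ± 0.30 on the log2 scale without an adjusted P from DESeq2, and Babam2 at 0.32 ± 0.12 (DESeq2 adjusted P = 0.106).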
